A study of Mus musculus with 19 samples.

Results

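The genes described here build and modify the sugar chains of glycoproteins, glycolipids and proteoglycans. They comprise the polypeptide GalNAc-transferases, the sialyl-, fucosyl-, galactosyl- and N-acetylglucosaminyltransferases, and the enzymes that start, polymerise and sulfate chondroitin and heparan sulfate. Members were all rows of the deposited table whose symbol begins with a name of these families, such as Galnt, St3gal, Mgat, Chst, Ndst or Ext. The rule took 63 of the 8336 genes of the table (0.756%) and used no measured value. The results of 62 members are described. The antisense transcript St8sia3os was also taken by its symbol, although it encodes no enzyme, and Galnt2l is a name whose bounds are examined below.

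Extrachromosomal circular DNA (eccDNA) of the cervical spinal cord was sequenced from 9 ALS and 10 control animals, and each library came from 1 mouse. The ALS mice were symptomatic males of B6.Cg-Tg(SOD1*G93A)1Gur/J, a transgenic line in which mutant human superoxide dismutase (hSOD1G93A) is constitutively overexpressed from the human SOD1 promoter, and had a motor severity score of 1 or 2 at an age of 18 to 21 weeks. The controls were C57BL/6J males of the same age without the transgene, and whether they were littermates is not given in the sources used here. Linear DNA in 400 ng of total DNA was digested with exonuclease V for 7 days and circular DNA was then copied by rolling circle amplification (RCA) over 48 h.

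Each value is the log2 of the PpGC plus 1. The PpGC of a gene sums the split reads, which cross the junction of a circle, over all eccDNAs that overlap the gene, and scales the sum by how many times the gene fits into the longest gene. It is a measure of circles that carry a piece of the gene and not of its expression. The table gives no position of an eccDNA within a gene, so that exonic and intronic circles were not separated. In whole tissue, more circles per cell and more cells with circles cannot be told apart, and split reads after RCA are not independent molecules.

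Protein glycosylation takes place in the endoplasmic reticulum and Golgi, where enzymes add sugars and sulfate groups to growing chains. Polypeptide GalNAc-transferases start mucin-type O-glycans on serine and threonine. Sialyltransferases cap chains with sialic acid, which is abundant on the gangliosides and the neural cell adhesion molecule of nervous tissue. Chondroitin and heparan sulfate chains are carried by proteoglycans of the neural extracellular matrix and the cell surface, and the pattern of their sulfate groups sets which growth factors and receptors they bind.

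Of the 1197 values of the members, 168 were above 0. Dividing out the length factor gave whole split reads for all 168, within a tolerance of 0.02, from 2 to 2098 split reads. At 0 were 86.0% of the member values, against 91.1% of all values in the table. An eccDNA was seen in 1 library only for 26 of the 63 members (41.3%), against 66.2% of all genes. The members were also longer than the table as a whole, with a median of 110 kb against 49.3 kb.

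The ALS libraries held between 694 and 2204 genes with an eccDNA, and the control libraries between 57 and 723. The split reads on genes ranged from 74039 to 393492 in ALS libraries and from 3583 to 123387 in control libraries. Among the members, 8 to 27 had an eccDNA in an ALS library (14.9 ± 5.69, SD, n = 9) and 0 to 12 in a control library (3.40 ± 3.47, SD, n = 10). All ALS libraries but ALS 6, ALS 7 and ALS 9 held more members than control 1, the control library with the most, and ALS 9 held 12 as control 1 did. As a share of the genes with an eccDNA in the library, the members made up 1.16% ± 0.24 (SD, n = 9) in ALS and 1.38% ± 0.62 (SD, n = 10) in controls, so that the order of the group means turned when the number of genes per library was divided out.

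**Figure D1:**
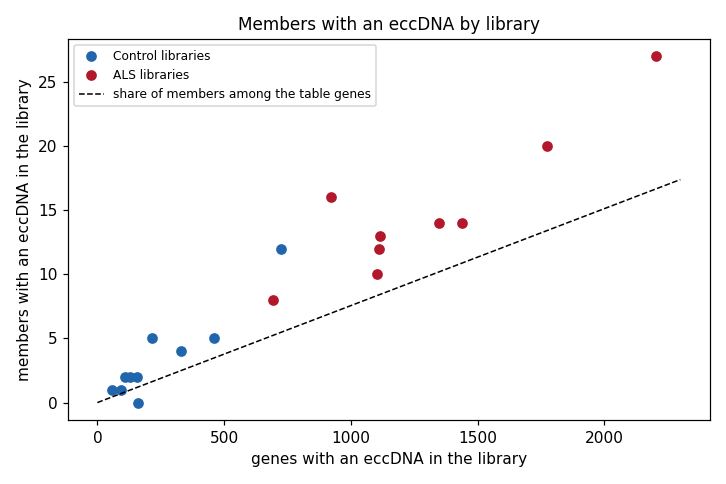
Number of members with an eccDNA against the number of all genes with an eccDNA, 1 point per library (9 ALS, 10 control). The dashed line marks the 0.756% share of members among the genes of the table, and the library with the most genes (ALS 3, 2204) holds the most members (27), while ALS 4 holds 16 members among 923 genes and ALS 7 holds 10 among 1105.

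Genes up in ALS had a mean log2 PpGC more than 1 above the control mean and a p under 0.01 in the test that the study's methods name, whose sides they do not state and which was run as two-sided. Run as one-sided, which is less strict, it called the same 4 members and 189 of all genes. By both thresholds 4 of the 63 members (6.35%) were up in ALS and 0 were down, against a background of 1.33% up and 0% down over all 8336 genes. The 3 of these that are described are Galnt2l and Galntl6, both named as GalNAc-transferases, and Csgalnact1, which starts chondroitin sulfate chains. At an unadjusted exact permutation p under 0.05, 5 of the 63 members passed, against 3.72% of all genes. After Benjamini-Hochberg adjustment of the exact p over all genes, 0 members passed, as did 0% of all genes, and with the p of the methods' test adjusted in the same way 0 of those 3 passed. Limma's moderated test called 4 members and 166 of all genes (1.99%).

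The mean was higher in ALS for 56 of the 63 members (88.9%) and lower for 7, against 86.5% higher over all genes. The median difference was 1.27 on the log2 scale for the members and 1.19 for all genes. An eccDNA was absent from all control libraries for 39 of the 63 members, against 75% of all genes. The members thus lay near the table in direction and in median difference.

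**Figure D2:**
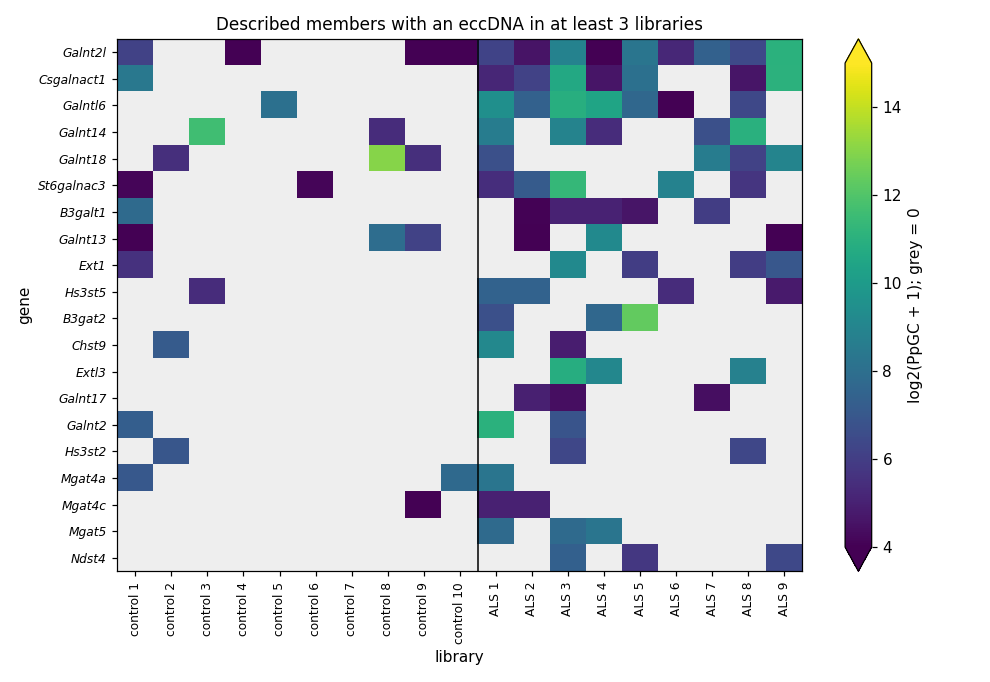
Log2(PpGC + 1) of the 20 described members with an eccDNA in at least 3 libraries, in the 10 control and 9 ALS libraries, with grey for a value of 0. Values scatter over few libraries per gene, and Galnt2l is the only row with a value in all 9 ALS libraries.

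Galnt2l had the most libraries with an eccDNA of the described members. Its log2 PpGC was above 0 in 9 of 9 ALS and 4 of 10 control libraries. In ALS the lowest value was 2.58 (ALS 4), the median 6.44 and the highest 11.04 (ALS 9). In controls the lowest value and the median were 0, and the highest was 6.15 (control 1). The groups overlapped, since control 1 lay above ALS 2, ALS 4 and ALS 6, and control 9 had the value of ALS 4. The mean was 6.74 ± 2.51 (SD, n = 9) in ALS and 1.44 ± 2.11 (SD, n = 10) in controls, a difference of 5.30 (two-sided exact permutation p = 2.71e-04, adjusted p = 0.261 over all genes). The count of eccDNA-bearing genes per library nearly separated the groups (694 to 2204 in ALS, 57 to 723 in controls), so that a fit with it as a covariate can hardly tell the group from the load, here and for the members below. With this covariate the difference was 2.70 (permutation p = 0.179), and with equal totals per library it was 3.28 (exact permutation p = 0.0158). Both fits ended the call, with the difference still above 1, and the part of the library load in this result cannot be told apart from the group. By presence or absence of an eccDNA alone, the Fisher's exact p was 0.0108, which also missed 0.01.

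The name Galnt2l is not in GENCODE release M21, and its bounds were therefore taken from its length factor. Without any length scaling, all 13 of its values above 0 were already whole split reads, which was so for 1 of the 1275 other genes with an eccDNA in at least 3 libraries. A factor of 1 belongs to the longest gene. In GENCODE M21 on mm10 this is Gm20388 on the forward strand of chromosome 8, at chr8:119910841-124345722, a protein-coding model of 4.43 Mb. It has 16 exons: the first exon ends where the first exon of Usp10, a deubiquitinase gene, ends in 4 Usp10 transcripts, and all 15 coding exons that follow are shared with Galnt2, a GalNAc-transferase gene at the far end. The first intron spans 4.38 Mb. That Galnt2l is this model rests on the length factor and on the split reads given next, not on a match of names.

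The join is visible in the start of the coding sequence, which is shown because it marks what the bounds of Galnt2l enclose. Capitals mark the 21 coding bases of the first exon (chr8:119910919-119910939), which 2 Usp10 transcripts share, and lower case the 94 bases of the second exon (chr8:124295358-124295451), which lies in Galnt2:
Gm20388 coding start: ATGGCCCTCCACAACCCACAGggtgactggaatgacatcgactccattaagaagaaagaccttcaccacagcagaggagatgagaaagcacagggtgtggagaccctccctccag

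Within these bounds 25 other genes of the table lie or overlap, of the 8089 that could be placed (247 were not), in 22 clusters of genes that do not overlap each other. Where genes of a cluster overlapped, only the largest split-read sum of the cluster was counted. In 0 libraries did these genes, counted in this way, hold more split reads than Galnt2l, and in 3 libraries they held exactly as many (control 9, control 10 and ALS 1). A plain sum over the 25 genes, which counts a circle in overlapping genes more than once, gave 6 of 5 split reads in ALS 4 and 173 of 169 in ALS 7. In the 6 libraries at 0 for Galnt2l, all of the 25 genes were at 0.

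The split reads of Galnt2l numbered 74, 23, 464, 5, 309, 36, 169, 86 and 2098 in ALS 1 to ALS 9, and 70, 4, 5 and 9 in control 1, control 4, control 9 and control 10. Galnt2 itself, which makes up 2.58% of the length of the model, held split reads in 3 of these 13 libraries: 4 in control 1, 53 in ALS 1 and 3 in ALS 3. Over the 9 ALS libraries 56 of 3264 split reads (1.72%) lay in Galnt2. In 10 of the 13 libraries, the value of Galnt2l therefore came from circles outside Galnt2.

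The split reads of ALS 1 came from Gse1 and Galnt2 together, and 275 of the 309 in ALS 5 lay in Acsf3, a mitochondrial acyl-CoA synthetase gene. In ALS 9, 158 of 2098 split reads lay in placed genes of the table, and 1940 did not. In ALS 3, 437 of 464 lay outside these genes, as did all in ALS 6 and control 4. The mean share in genes of the table was 51.0% ± 41.6 (SD, n = 9) over the ALS libraries and ranged from 0% to 100%. None of the 25 genes passed both thresholds (0 of 25), against 1.33% of all genes. Of the 25 genes, 19 had an eccDNA in 1 library only, against 66.2% of all genes, and 4 libraries was the most for any of them. Those with 4 ALS and 0 control libraries were Gse1 (difference 3.31) and Ankrd11, a chromatin regulator gene (difference 3.63), each with a two-sided exact permutation p of 0.0325 before adjustment and 0.581 after it. In 3 of its libraries (ALS 3, ALS 4 and ALS 7), Ankrd11 had the same split reads as the overlapping antisense gene Gm45894, so that 1 circle can count for both.

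**Figure D3:**
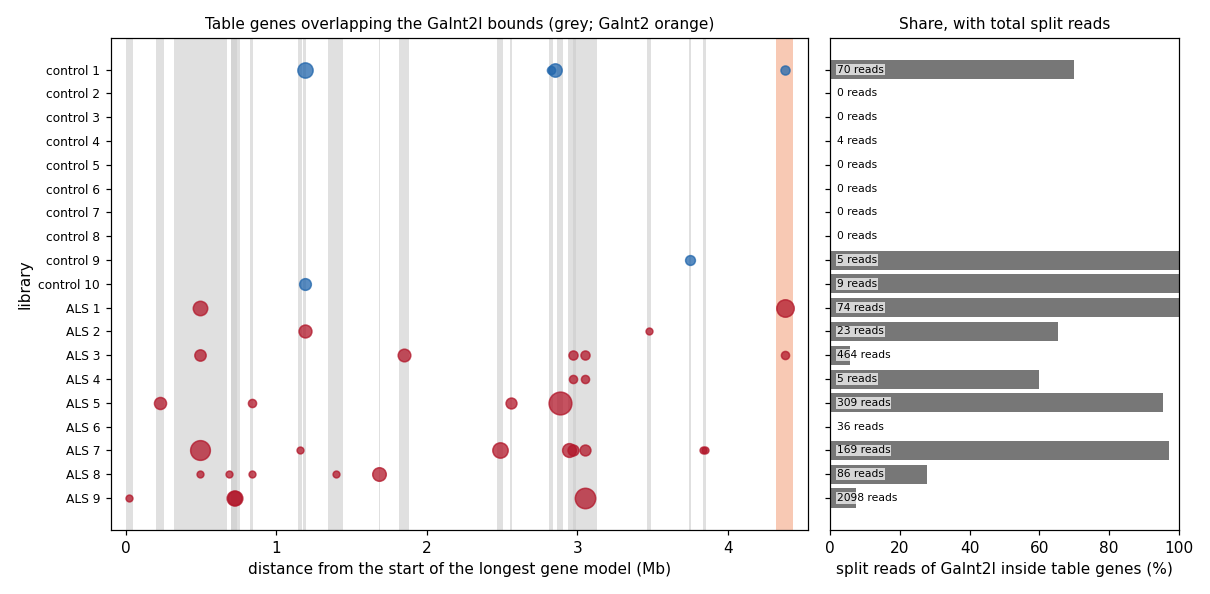
Left, split reads of the genes inside the 4.43 Mb bounds of Galnt2l by library, each point at the midpoint of its gene in Mb from the start of the model, with a larger point for more split reads (log scale), shading for gene bodies and orange for Galnt2. Right, the percentage of the split reads of Galnt2l that lie in genes of the table, with the total beside each bar; it is 100% for ALS 1 and 0% for ALS 6.

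Galntl6, a GalNAc-transferase-like gene of 1139 kb at chr8:57774052-58912640, had an eccDNA in 7 of 9 ALS and 1 of 10 control libraries. Its log2 PpGC was 0 in ALS 7 and ALS 9, had a median of 7.40 in ALS and reached 10.90 in ALS 3. The one control library above 0 was control 5 with 8.05, which lay above all ALS libraries except ALS 1, ALS 3 and ALS 4. The mean was 6.15 ± 4.19 (SD, n = 9) in ALS and 0.81 ± 2.55 (SD, n = 10) in controls, a difference of 5.35 (two-sided exact permutation p = 0.00548, adjusted p = 0.581). The 1144 ALS split reads included 491 in ALS 3, 352 in ALS 4 and 183 in ALS 1. Without ALS 1, ALS 3 or ALS 4 the exact permutation p was 0.0103, and with equal totals the difference was 4.29 (exact permutation p = 0.0144). With a pseudocount of 100 it was 1.50 (exact permutation p = 0.0126), and with the covariate 1.89 (permutation p = 0.522).

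The methods of the study also call a gene common to a group when at least 3 libraries pass a log2 PpGC of 9 in ALS or 8 in controls. Galntl6 was the only member to do so in ALS (1 of 63, 1.59%, against 0.852% of all genes), with ALS 1, ALS 3 and ALS 4, and 0 members did so in controls, against 0.048% of all genes. With a threshold of 8 in both groups, 5 of the 63 members were common to ALS, against 2.17% of all genes.

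Csgalnact1, whose product adds the first GalNAc of a chondroitin sulfate chain, lies at chr8:68356781-68735146 and is 378 kb long. It had an eccDNA in 7 of 9 ALS libraries, with 0 in ALS 6 and ALS 7, a median of 5.18 and a highest value of 11.05 in ALS 9. Among controls only control 1 was above 0, with 8.41, which was higher than all ALS libraries except ALS 3 and ALS 9. The mean was 5.59 ± 3.97 (SD, n = 9) in ALS and 0.84 ± 2.66 (SD, n = 10) in controls, a difference of 4.75 (two-sided exact permutation p = 0.00965, adjusted p = 0.581). Of 351 ALS split reads, 181 came from ALS 9 and 134 from ALS 3. The exact permutation p rose above 0.01 without any 1 of 16 of the 19 libraries, to at most 0.0116. With equal totals the difference was 3.48 and without length scaling 2.53 (exact permutation p = 0.0257 each), with a pseudocount of 100 it was 1.15 (exact permutation p = 0.0729), and it turned to -1.19 with the covariate (permutation p = 0.633). Its paralogue Csgalnact2 had 3 split reads in 1 ALS library.

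**Figure D4:**
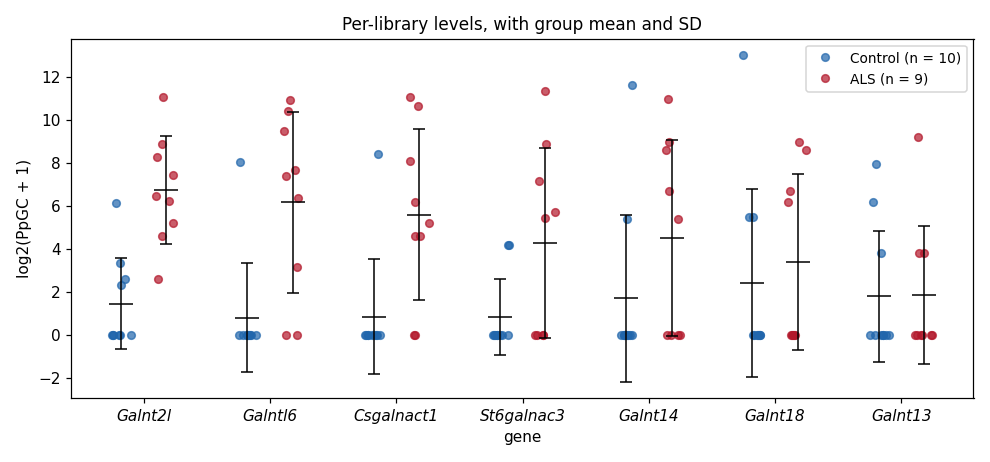
Log2(PpGC + 1) of 7 members in each library (points; blue, 10 control; red, 9 ALS), with the group mean (dash) and SD (bar). Galnt2l, Galntl6 and Csgalnact1 have 9, 7 and 7 ALS libraries above 0, whereas Galnt13 has 3 in each group and a difference of 0.08.

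Among the 11 genes whose symbol begins with Galnt, all 11 had a higher mean in ALS and 2, Galnt2l and Galntl6, passed both thresholds, beside the 86.5% and 1.33% of all genes. Galnt2l and Galnt2 are not separate here, since the bounds of the first enclose the second. The median difference of the 11 genes was 1.53. Galnt14 (217 kb, chromosome 17) was above 0 in 5 ALS libraries, with a median of 5.39 and a highest value of 10.98 in ALS 8, and in 2 control libraries, with 11.61 in control 3 and 5.39 in control 8. The highest value of this gene was thus in a control library, and the difference of 2.81 did not pass the test (two-sided exact permutation p = 0.153). With the covariate the difference turned to -1.90 (permutation p = 0.593). In 1 of its libraries the split reads were the same as those of D630014O11Rik, a transcript inside the gene, so that 1 circle can count for both.

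Galnt18 (308 kb, chromosome 7) was above 0 in 4 ALS libraries, at most 8.98 in ALS 9, and in 3 control libraries, with 13.00 in control 8 and 5.46 in control 2 and control 9. Its difference was 0.99 (two-sided exact permutation p = 0.634). When 1 library was left out, it ranged from 0.29 (without ALS 9) to 2.17 (without control 8). It turned to -0.39 with equal totals and to -0.42 with the covariate. Galnt13 (682 kb, chromosome 2), which is expressed mainly in nervous tissue, was above 0 in 3 libraries of each group, with 3.81 in ALS 2 and ALS 9, 9.21 in ALS 4, and 3.81, 7.92 and 6.18 in control 1, control 8 and control 9. Its difference was 0.08 (two-sided exact permutation p = 1). Both genes are thus long members of the same family whose values overlapped between groups and did not pass the test. Galnt2 itself, above 0 in 2 ALS and 1 control libraries, had a difference of 1.26 (two-sided exact permutation p = 0.458).

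The 11 sialyltransferase genes, without the antisense transcript St8sia3os, had a higher mean in ALS for 9 and a lower mean for 2, and 0 passed both thresholds. Over all genes, 86.5% had a higher mean and 1.33% passed both thresholds. Of the 11 genes, 7 had an eccDNA in 1 library only, against 66.2% of all genes. St6galnac3, which adds sialic acid to GalNAc in O-glycans and gangliosides and is 527 kb long, was above 0 in 5 ALS libraries, with a median of 5.43 and a highest value of 11.32 in ALS 3. In controls it was 4.16 in control 1 and control 6, below each of the 5 ALS libraries, while the other 4 ALS libraries were at 0. The difference was 3.45 (two-sided exact permutation p = 0.0418, adjusted p = 0.581), and it turned to -1.60 with the covariate. Of its 387 ALS split reads, 303 came from ALS 3.

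St8sia4, a polysialyltransferase of the neural cell adhesion molecule, had 3 split reads in control 2 (log2 PpGC 7.39) and none in ALS, a difference of -0.74 (two-sided exact permutation p = 1). Its counterpart St8sia2 had 3 split reads in 1 ALS library. St6galnac5 shared its split reads with the overlapping gene Pigk in both libraries where it was above 0, so that these circles are not particular to either gene.

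The 13 genes for galactose, GlcNAc, GalNAc and glucuronic acid transfer had a higher mean in ALS for 12, against 86.5% of all genes. None passed both thresholds (0 of 13), against 1.33% of all genes. B3galt1, a galactosyltransferase of 557 kb, was above 0 in 5 ALS libraries, from 4.08 in ALS 2 to 6.02 in ALS 7, and in control 1 with 7.81, which was higher than every ALS library. Its difference was 1.98 (two-sided exact permutation p = 0.127), and without control 1 it was 2.76 and passed both thresholds, with an exact permutation p of 0.0294. With a pseudocount of 100 the difference was 0.06, and with the covariate it turned to -0.33 (permutation p = 0.878). B4galnt4 had the most negative difference of all members, -1.39, from 38 split reads in control 9 (log2 PpGC 13.86) and none elsewhere (two-sided exact permutation p = 1).

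The 3 N-glycan branching genes of the Mgat family had a higher mean in ALS for 2 and the 3 fucosyltransferase genes for 3, against 86.5% of all genes. Both thresholds were passed by 0 of the 6, against 1.33% of all genes. Mgat4a was lower, with a difference of -0.56 from 1 ALS and 2 control libraries. Fut8, which adds the core fucose of N-glycans, had 120 split reads in 1 ALS and 7 in 1 control library.

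The 4 Ext genes, a family of heparan sulfate synthesis, all had a higher mean in ALS. Their median difference was 2.39, and 0 passed both thresholds. For all genes the share higher was 86.5%, the median difference 1.19 and the share past both thresholds 1.33%. Ext1, a subunit of the heparan sulfate polymerase, was above 0 in 4 ALS libraries, with 9.22 in ALS 3, 6.99 in ALS 9 and 6.00 in ALS 5 and ALS 8. In controls it was 5.59 in control 1, below those 4 libraries. The difference was 2.57 (two-sided exact permutation p = 0.0542) and turned to -2.21 with the covariate.

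The 7 heparan sulfate sulfation genes, the N-deacetylase/N-sulfotransferases and the 3-O- and 6-O-sulfotransferases, had a higher mean in ALS for 6 and a lower mean for 1, and 0 passed both thresholds. The shares over all genes were 86.5% higher and 1.33% past both thresholds. Hs3st5, a 3-O-sulfotransferase of 328 kb, was above 0 in 4 ALS libraries, with 7.47 in ALS 1 and ALS 2, 5.38 in ALS 6 and 4.81 in ALS 9, and in control 3 with 5.38, the value of ALS 6. Its difference was 2.25 (two-sided exact permutation p = 0.0975). Beside the same shares of all genes, the 7 Chst genes, which sulfate chondroitin and other chains, were higher in ALS for 5 and lower for 2, and 0 passed both thresholds. Chst4 was the lowest of them at -1.03, from 3 split reads in control 1 (log2 PpGC 10.30), and Chst15 lies within the bounds of Fgfr2, a gene with an eccDNA in 14 libraries.

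Chosen after their values were seen, 5 of the 63 members had an eccDNA in 3 ALS and 0 control libraries, against 4.15% of all genes: B3gat2, Extl3, Galnt17, Mgat5 and Ndst4. Their differences were 2.97, 3.20, 1.53, 2.65 and 2.17. Each of the 5 had a two-sided exact permutation p of 0.0867 and did not pass. The values of Extl3, a glycosyltransferase that starts heparan sulfate chains, came from 63 split reads, and those of Galnt17 from 7.

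Long members had an eccDNA in more libraries than short ones. All 4 members up in ALS were longer than 200 kb, 4 of 21 such members, against a background of 9.7% of the 1031 placed genes of that length. Of the 42 members up to 200 kb, 0 were up, against 0.156% of all genes up to 200 kb. The mean number of ALS libraries with an eccDNA was 0.93, 1.47, 1.31, 3.07 and 5.57 for members in the classes up to 50, 50 to 100, 100 to 200, 200 to 500 and over 500 kb. For all genes of those classes it was 0.94, 1.25, 1.60, 2.74 and 5.09. In controls the means were 0.14, 0.067, 0.69, 0.71 and 1.71 for the members and 0.19, 0.24, 0.32, 0.55 and 1.50 for all genes. The 3 shorter classes hold 13 to 15 members each, and in controls members lay below all genes from 50 to 100 kb and above them from 100 to 200 kb, with no test of either.

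**Figure D5:**
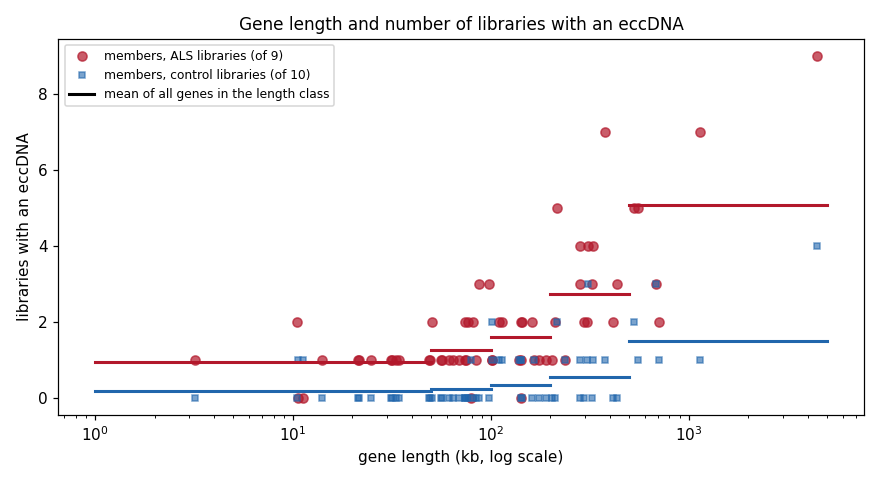
Number of libraries with an eccDNA for each of the 62 described members against gene length in kb (log axis), red circles for ALS (of 9) and blue squares for control (of 10). Horizontal lines give the mean of all genes in the length class, which in ALS goes from 0.94 up to 50 kb to 5.09 over 500 kb.

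All 4 members up in ALS also lay on chromosome 8, where 8 of the members are found, and 0 of the 55 members on other chromosomes were up. Over all genes, 2.08% of those on chromosome 8 and 1.29% of the others were up. The members on chromosome 8 had a median length of 246 kb, against 102 kb on other chromosomes, and their parts in this pattern, length and chromosome, were not tested. The shortest there, Chst4, Chst5, Fut10 and Galnt2, were not up. The ALS libraries differed in the share of their genes on a chromosome by a chi-square per degree of freedom of 1.93 for chromosome 8, against 20.6 for chromosome 1 and 0.364 for chromosome 3.

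The other genes of these pathways were taken from 4 lists of 74 names, of which 35 were in the table. These lists hold O-glycan extension and dystroglycan genes, genes of glycosaminoglycan synthesis and turnover, proteoglycan core proteins, and genes of N-glycan processing and other O-linked sugars. The mean was higher in ALS for 29 of 35 and lower for 6, against 86.5% higher over all genes, the median difference was 1.07, and 0 were up or down by both thresholds. Named after its value was seen, Ust, the uronyl 2-sulfotransferase of dermatan and chondroitin sulfate, was the only 1 of 35 with an exact permutation p under 0.05, a share no higher than the 3.72% of all genes. It had an eccDNA in 4 ALS and 0 control libraries and a difference of 3.61 (two-sided exact permutation p = 0.0325, adjusted p = 0.581).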

How the data were processed

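EccDNA of cervical spinal cord was measured in 19 libraries, 9 ALS and 10 control. The authors mapped reads to mm10 with Circle_Finder, merged eccDNAs within 10 bp, removed those with fewer than 2 split reads, assigned the rest to GENCODE genes with bedtools, and deposited log2(PpGC + 1), so that the log2 values carry a gene length factor but no scaling between libraries. The sequencing depth per library is not in the table, and split reads on genes are the signal itself.

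The deposited values were used with their pseudocount of 1. Genes were matched by name to GENCODE M21 (GRCm38), leaving out names that occur more than once. The thresholds are those of the study's methods: means that differ by more than 1 and p under 0.01 in Student's test, taken here as two-sided. Single genes were tested by exact permutation (92378 assignments), and adjusted p-values are Benjamini-Hochberg values over all 8336 genes. One gene alone at the smallest p that these assignments allow would be adjusted to 0.0902. The covariate fit permuted residuals 100000 times (seed 20). Each library came from 1 mouse and was counted as 1 sample. Libraries of a group shared at most 13.5% of their genes.

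Named are members with an eccDNA in at least 4 libraries, those past both thresholds, the 3 with the most negative difference, and Galnt2l. A one-sided p was tried after seeing the data. A few others are named to spell out counts or to set a paralogue beside a member, and were chosen after their values were seen. The members, lists and tests were chosen with earlier results of these data known. The results of 1 member are not reported here. Alternatives were limma 3.58.1 (R 4.3.3), the exact p, Benjamini-Hochberg adjustment, a p under 0.001, a replicate block, the number of genes with an eccDNA as covariate, equal totals, no length scaling, presence or absence, a pseudocount of 100, genes in at least 3 samples, other vote thresholds and leaving out each library. Scripts ran in Python 3.11.15 (SciPy 1.17.1, NumPy 2.4.6, matplotlib 3.10.9, pandas 2.3.3). The tests were tested on simulated data.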

Additional observations from a re-analysis of the deposited data

Results flagged for a closer look

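Of 23 groups examined over the named members, 11 held 1 library that stood apart from the others by Dixon's criterion, which chance flags in about 1 of 20 groups. That rate does not apply to groups made mostly of zeros: in 8 of the 11 the library was the only 1 above 0, all in controls, and stands apart by construction. These were B3galt1 (7.81), Csgalnact1 (8.41), Ext1 (5.59) and Chst4 (10.30) in control 1, St8sia4 (7.39) in control 2, Hs3st5 (5.38) in control 3, Galntl6 (8.05) in control 5 and B4galnt4 (13.86) in control 9, as log2 PpGC. In the other 3 the group held further values above 0: Galnt14 at 11.61 in control 3, Galnt18 at 13.00 in control 8 and Galnt13 at 9.21 in ALS 4.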

How the results depend on the processing

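Members up in ALS numbered 4, and 4 with limma, with the one-sided p, with the exact p and with a minimum of 3 samples. They numbered 3 with the replicate block, with the covariate, without length scaling and by presence (the block and the unscaled values without Csgalnact1, presence without Galnt2l), 2 at a p under 0.001 (Galnt2l the only described one), and 1 with Benjamini-Hochberg adjustment, with equal totals and with a pseudocount of 100 (there Galnt2l). The covariate's 3 include B4galt5 and St8sia6 and none of Galnt2l, Galntl6 and Csgalnact1, and 2 members (Galnt2, Galnt9) were then down, where 0 were before. That covariate nearly separates the groups, so that group and load can hardly be told apart in its calls and reversals. Leaving out 1 library gave 3 to 5 of the 63 members up, with Galnt2l and Galntl6 called each time. Over all 8336 genes it gave 85 (without ALS 3) to 133 (without ALS 4) up. Over the whole table, the 111 genes up became 189 with a one-sided p (chosen after seeing the data), 166 with limma, 68 with the exact p, 6 with Benjamini-Hochberg adjustment, 29 at a p under 0.001, 54 with the replicate block, 26 with the covariate (84 down), 60 with equal totals, 72 without length scaling, 9 with a pseudocount of 100 and 57 by presence.

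With the covariate the difference reversed to -0.33 for B3galt1, -1.19 for Csgalnact1, -2.21 for Ext1, -1.90 for Galnt14, -0.42 for Galnt18 and -1.60 for St6galnac3. With equal totals it reversed to -0.63 for Galnt13 and -0.39 for Galnt18. Galnt13 also reversed with the replicate block (-0.12), and ranged from -0.84 to 0.76 when 1 library was left out. Members common to ALS numbered 5 at a threshold of 8 and 0 with at least 4 votes. The cause of these changes was not tested.

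Whether the replicate numbers pair the samples is not given in the sources used here. The correlation of same-numbered libraries ranged from -0.02 to 0.02 over 9 pairs, and 2 ALS libraries correlated best with their own number. Libraries of the same group also shared at most 13.5% of their genes, so that low correlations cannot decide whether the numbers pair. With the block, the differences were 4.65 for Csgalnact1 and 5.26 for Galntl6 (exact p = 0.0312 each).

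The share of Galnt2l split reads in genes of the table was 42.8% when overlapping genes were left out and, chosen after seeing the data, 58.5% as a plain sum. Values rest on few split reads in most libraries, and an eccDNA with fewer than 2 is not seen. With 9 against 10 animals, the exact permutation test allows no adjusted p under 0.0902 for 1 gene alone.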
